A study of Mus musculus with 288 samples.

Results

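The livers of mice that had been through intermittent hypoxia (IH) were compared between the day and the night of one circadian cycle. Of the 24 liver libraries after IH, 23 were used, which is 23 of the 288 libraries of the whole series. The 12 libraries of the time points 1:30, 4:30, 7:30 and 10:30 made up the day, and the 11 libraries of 13:30, 16:30, 19:30 and 22:30 made up the night. The library labelled IH replicate 2 at 13:30 was left out because it held heart transcripts. Expression is given as TPM, the share of a library's transcripts that a gene takes after correction for transcript length, scaled to a fixed total. Levels, ranges and overlaps are those of the TPM as deposited. Differences, SE and p-values come from TPM after a further scaling of each library. The 7107 of 35904 genes that averaged 5 TPM or more over the 23 libraries were tested.

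All mice were male wild-type C57BL/6J animals, 8 weeks old. The IH group breathed air whose oxygen was cycled between 21% and 8% in the light, resting phase for 7 days, and the normoxia group stayed in room air. Both groups were then kept for 2 days in constant darkness and room air, and tissues were taken every 3 hours on the second of those days from 3 mice per time point and treatment. No library was therefore made under hypoxia or in light, and "day" and "night" stand for the labelled time points only. The labels do not say from which event the hours are counted. Each library is a separate mouse. The p-values of day against night rest on the spread between libraries of 1 phase, which holds the differences between mice and the change over the 4 time points of that phase.

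The circadian clock of the liver is a loop of transcription factors. CLOCK and BMAL1, the product of *Arntl*, activate genes through E-box sequences, the PER and CRY proteins restrain that activation, and the REV-ERB repressors (*Nr1d1*, *Nr1d2*) and ROR activators compete for elements that time *Arntl* itself. In the liver, clock output, feeding, glucocorticoids and the daily body temperature cycle together time the genes of lipid, glucose, bile acid and chaperone metabolism.

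Libraries that stood apart were looked for first. The first principal component held 46.9% of the variance and set all libraries of replicate 3, at 0.212 to 0.274, apart from those of replicates 1 and 2, which reached 0.0621 at most. The albumin gene *Alb* ranged from 19930 to 39676 TPM in replicate 3 and from 6691 to 26352 TPM in the others. The labels give no batch for the replicate numbers. Every replicate number was present in the day and in the night, and the libraries of day and night overlapped in all marker sums: 10 hepatocyte markers summed to between 23998 and 71044 TPM in the day and between 26457 and 69941 TPM at night, and 7 erythroid markers to between 2656 and 10208 TPM and between 1260 and 11989 TPM. The 10 heart markers summed to between 34.8 and 64.7 TPM in the day and between 32.0 and 55.8 TPM at night, and the 10 kidney markers to between 71.4 and 117 TPM and between 43.3 and 132 TPM. Of 45 marker genes of other and liver cell types that could be tested, 0 were called between day and night with limma. An unadjusted p of at most 0.05 was met by 3. Of all 7107 genes tested, 70 were called and 680 met that unadjusted p. The part of these transcripts in the results was not tested. In bulk tissue, fewer cells of a type and less RNA per cell cannot be told apart.

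The largest called differences were those of the clock repressor gene *Nr1d1* and of *Clec2h* toward the day, and of *G0s2*, *Hspb1*, *Nat8f5* and *Ppp1r3b* toward the night. With limma, 70 of 7107 genes (0.985%) were called at a Benjamini-Hochberg adjusted p of at most 0.05. Of these, 18 (0.253%) were higher in the day and 52 (0.732%) were higher at night, with differences from 1.24-fold to 6.97-fold. A difference of at least 1.5-fold was also met by 47 (0.661%), 11 (0.155%) higher in the day and 36 (0.507%) at night. At an unadjusted p of at most 0.05 there were 680 genes. Of the 70, 15 were members of the 20 pathway lists, of which 304 genes were tested. These lists were chosen with earlier results of these data known, so their shares beside those of all genes are a description. The 70 genes had the same sign in replicates 1, 2 and 3 taken alone, as did 40.3% of all genes tested, but since the pooled fit chose the 70, this share is a description. The median difference over all genes tested was -0.01 on the log2 scale. With the TPM as deposited, without further scaling, that median was 0.03, and 6 genes were called higher in the day and 18 higher at night.

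The number of calls depended on single libraries. Of the 27 genes that the naming rule picked, 0 changed direction under any of 43 alternatives. Since they were picked for their difference in these same libraries, this is a description and no test. Leaving out any 1 of the 23 libraries gave between 31 and 103 genes, and for 11 of them the number moved by more than 1.5 times, to between 31 and 46. These were the libraries of replicates 1, 2 and 3 at 4:30 (38, 37 and 39 genes), replicates 1 and 2 at 7:30 (31 and 39), replicate 2 at 10:30 (36), replicates 1, 2 and 3 at 16:30 (46, 31 and 38) and replicates 2 and 3 at 19:30 (44 and 40). Without replicate 3, 30 genes were called, and without replicate 1 there were 26. Without replicate 2, 5 genes were left, among them *Nr1d1*, *Hspb1*, *Ppp1r1b* and the predicted gene *Gm8941*. Without the 2 libraries that detected most genes (replicate 1 at 1:30 and replicate 2 at 7:30), 87 genes were called.

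Of 19 listed core clock genes 14 were tested, 1 was higher in the day, 2 were higher at night and 11 were not called, where 0.253% of all genes tested were higher in the day and 0.732% at night. The median log2 difference was -0.21. The day gene was *Nr1d1*, which encodes the repressor REV-ERBα and lies on chromosome 11 (GRCm38, 98767932 to 98775333). It ranged from 5.55 to 59.4 TPM with a median of 16.4 in the day, and from 0.905 to 12.4 TPM with a median of 1.32 at night. Of the day libraries, 7 were above the highest night library, and of the night libraries, 10 were below the lowest day library, so the overlap rested on 1 night library, replicate 3 at 13:30 with 12.4 TPM. The log2 difference was 2.80 (SE 0.37, limma adjusted p = 0.000149). Levels per time point were highest at 4:30, with 37.3 ± 19.4 TPM (SD, n = 3), and lowest at 19:30, with 1.07 ± 0.172 TPM (SD, n = 3).

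*Cry1*, a repressor of CLOCK and BMAL1 on chromosome 10 (85131700 to 85185064), ran the other way and was higher at night. It ranged from 1.49 to 8.52 TPM with a median of 3.63 in the day and from 3.00 to 22.0 TPM with a median of 12.9 at night. The log2 difference was -1.55 (SE 0.22, limma adjusted p = 0.000207). The 2 night libraries nearest the day values were replicate 1 at 13:30 and at 16:30, with 3.00 and 5.21 TPM. These had the lowest scaling factors, 0.605 and 0.742. Division by them raises the values in the fit. In the plot of called genes by time point, the mean of *Cry1* climbs from 6.68 TPM at 13:30 to 17.2 TPM at 19:30, while *Nr1d1* is at 1.07 to 1.61 TPM from 16:30 on.

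**Figure D1:**
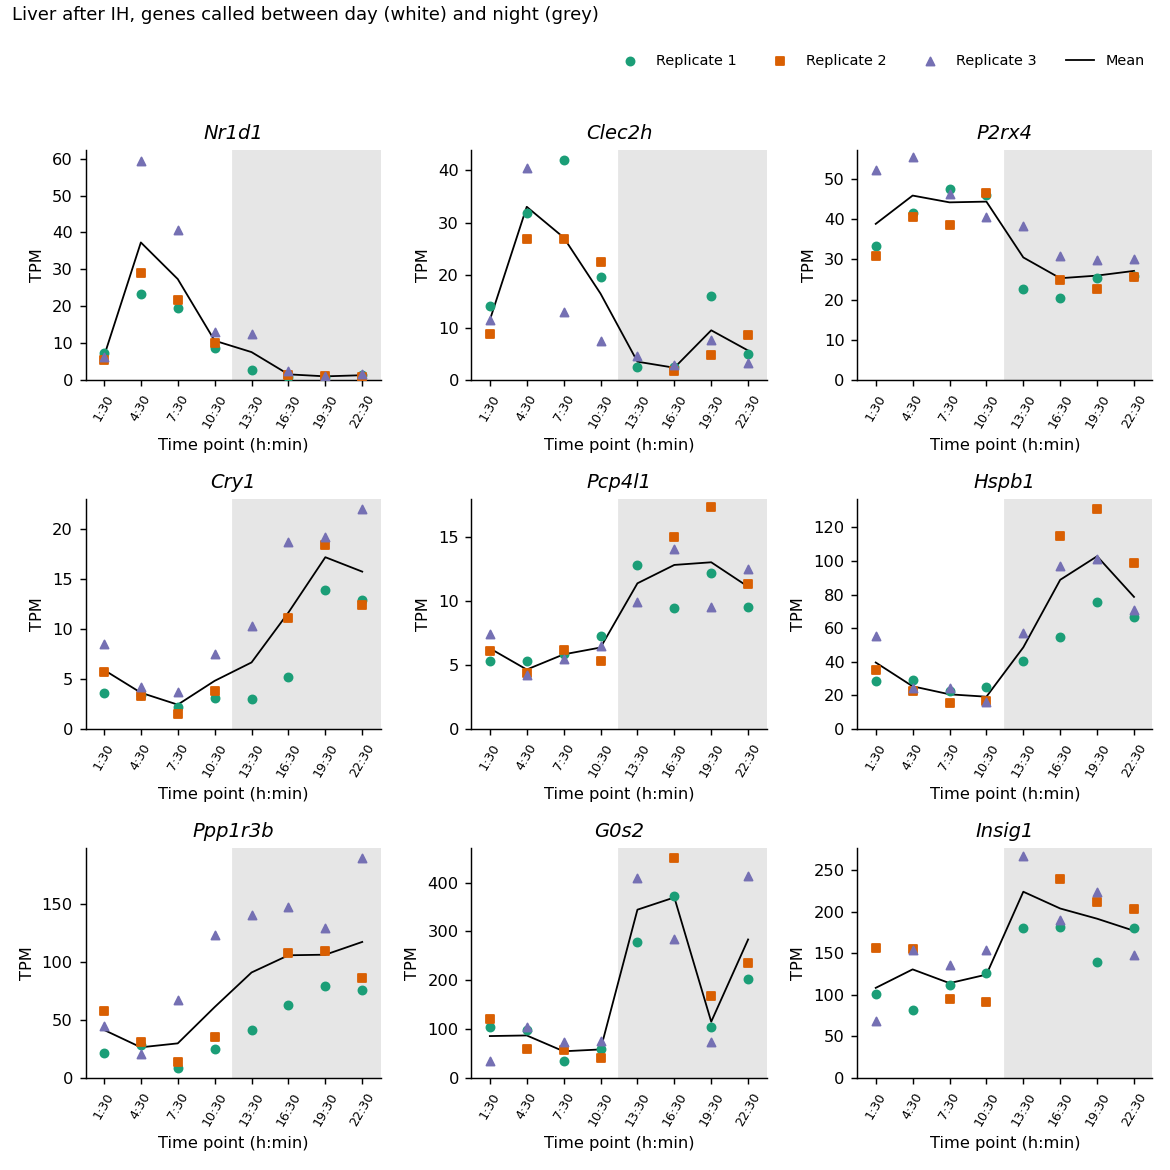
TPM (vertical axis, from 0) of 9 called genes at the 8 time points (horizontal axis) in liver after IH, night in grey. Each symbol is 1 mouse, its shape the replicate number, and the line joins the means of 3 mice (2 at 13:30). *Nr1d1*, *Clec2h* and *P2rx4* are high in the day, while the other 6 genes are higher at night, and the mean of *G0s2* is 115 TPM at 19:30.

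Promoter sequences are shown for the clock genes because the elements named above are short and can be read in them. They come from RefSeq on GRCm38.p6 and are given 5′ to 3′ on the strand of the gene, up to the base before the annotated start. Capitals mark the E-box CACGTG, which reads the same on both strands. *Cry1* carries it once, beginning 60 bases before the start (chr10:85185055-85185304, minus strand). *Ciart*, a repressor of CLOCK and BMAL1 that is discussed below, carries it 3 times, beginning 116, 58 and 44 bases before the start (chr3:95882229-95882478, minus strand).
Cry1: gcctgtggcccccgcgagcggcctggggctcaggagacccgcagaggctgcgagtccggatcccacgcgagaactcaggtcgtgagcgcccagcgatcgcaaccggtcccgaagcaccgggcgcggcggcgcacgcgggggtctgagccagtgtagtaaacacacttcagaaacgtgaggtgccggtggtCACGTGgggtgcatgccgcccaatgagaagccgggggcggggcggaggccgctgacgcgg
Ciart: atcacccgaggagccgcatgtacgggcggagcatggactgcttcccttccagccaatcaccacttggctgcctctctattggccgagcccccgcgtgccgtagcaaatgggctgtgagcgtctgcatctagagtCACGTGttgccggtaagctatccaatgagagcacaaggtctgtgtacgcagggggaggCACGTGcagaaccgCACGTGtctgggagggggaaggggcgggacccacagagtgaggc
In windows from 250 bases before to 50 bases after the start, the E-box stood in 7.15% of 32851 promoters. Of the 16 clock genes with a promoter entry, 5 held one, *Cry1*, *Ciart*, *Per1*, *Tef* and *Bhlhe41*. It stood in 0 of the 12 genes with an entry that were higher in the day and in 4 of the 39 that were higher at night (*Cry1*, *Ddo*, *Dusp1* and *Insig1*). A match is a run of letters and not a bound site.

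The element that REV-ERB and ROR proteins share was searched as GTAGGTCA on both strands, and it stood in 0.621% of promoters. Among the clock genes, *Arntl* and *Nfil3* held it. In *Arntl* it begins 29 bases after the start (chr7:113207532-113207555, plus strand), and it is shown here in capitals with the bases beside it.
Arntl: ggcagaaaGTAGGTCAgggacgga

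Outside the clock, *Clec2h*, which encodes a C-type lectin, had the next largest difference toward the day. It was at 7.40 to 41.8 TPM with a median of 21.0 in the day and at 1.70 to 16.1 TPM with a median of 4.54 at night, and 7 day libraries stood above all night libraries. The log2 difference was 1.93 (SE 0.33, limma adjusted p = 0.0024). *Clec2h* belongs to a family of similar genes, so its reads may be shared with them. *Foxq1*, a forkhead transcription factor, followed with 2.21 to 19.6 TPM (median 10.9) in the day and 1.30 to 11.1 TPM (median 2.27) at night, a log2 difference of 1.43 (SE 0.33, limma adjusted p = 0.0351). It was 1 of the 5 called genes without a call in the 24-hour fit described below, and it fell below the threshold in 25 of 43 alternatives.

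The other day genes of the first 10 were smaller in their difference, between 0.61 and 1.03 on the log2 scale. They were *Fbxo21*, an F-box protein of ubiquitin ligases, *Slc8b1*, the mitochondrial sodium and calcium exchanger, *Inca1*, an inhibitor of cyclin A and CDK activity, *Gabarapl1*, a protein of autophagosomes, *Gnat1*, the transducin alpha subunit known from rod cells, *P2rx4*, an ATP-gated ion channel, and *Rbms1*, an RNA-binding protein. Of 43 alternatives, *Gnat1* fell below the threshold in 27, *Slc8b1* in 26, *Gabarapl1* in 22, *Fbxo21* in 10, *Rbms1* in 7, *Inca1* in 3 and *P2rx4* in 1. *P2rx4* separated best, from 30.8 to 55.3 TPM (median 43.7) in the day and from 20.3 to 38.3 TPM (median 25.7) at night. In 10 of 12 day libraries it was above every night library (log2 difference 0.63, SE 0.10, limma adjusted p = 0.00124). *Gabarapl1* was the most abundant of them, at a median of 248 TPM in the day and 171 TPM at night.

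Higher at night by the widest margin was *G0s2*, the inhibitor of adipose triglyceride lipase that holds back the breakdown of stored fat. It was at 33.9 to 120 TPM with a median of 66.2 in the day and at 73.6 to 451 TPM with a median of 279 at night. The log2 difference was -1.90 (SE 0.32, limma adjusted p = 0.0024), and 9 of 11 night libraries were above every day library. The 19:30 libraries were the low ones of the night, with 115 ± 47.6 TPM (SD, n = 3) between 369 ± 83.0 TPM at 16:30 and 283 ± 113 TPM at 22:30. *Plin5*, which coats lipid droplets and anchors them to mitochondria, was also higher at night, from a median of 17.8 to 29.8 TPM (log2 difference -0.64, SE 0.14, limma adjusted p = 0.0228), and was named after its value was seen.

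*Nat8f5*, *Acnat2* and the small protein gene *Pcp4l1* showed different kinds of separation. *Nat8f5*, of the N-acetyltransferase 8 family, had medians of 10.8 TPM in the day and 35.7 TPM at night (log2 difference -1.69, SE 0.29, limma adjusted p = 0.00305), and its close relative *Nat8* had 12.6 and 18.7 TPM (log2 difference -0.86, SE 0.21, limma adjusted p = 0.0402), so that reads may be split between the copies. *Acnat2*, an acyl-CoA amino acid N-acyltransferase, had medians of 11.1 and 23.2 TPM, but the night values ran up to 186 TPM, and the log2 difference of -1.54 (SE 0.38, limma adjusted p = 0.047) was lost in 30 of 43 alternatives. *Pcp4l1* was the 1 gene of 7107 (0.0141%) in which day and night did not overlap in the TPM as deposited. It had 4.23 to 7.45 TPM in the day and 9.44 to 17.3 TPM at night. Its log2 difference was -1.04 (SE 0.15, limma adjusted p = 0.000207), and it was named for this after its value was seen.

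Heat shock chaperones stood higher at night. Of 20 listed genes 19 were tested, 4 were higher at night, 0 were higher in the day and 15 were not called, against 0.732% of all genes higher at night. The median log2 difference of the 19 was -0.49, beside -0.01 over all genes tested. The estimates of all 19 were below 0, as were those of 3827 of all 7107 genes tested. With the TPM as deposited 17 were below 0, the median was -0.44 and 2 were called. Without replicate 1 or replicate 3 the number called was 3, without replicate 2 it was 1, and leaving out any single library gave between 4 and 6. With a mean fitted for each time point 6 were called, where 127 of all 7107 genes were.

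The largest of them was *Hspb1*, the small chaperone HSP27, on chromosome 5 (135887919 to 135889563). It ranged from 15.2 to 55.3 TPM with a median of 24.3 in the day and from 40.4 to 131 TPM with a median of 75.9 at night. Of the night libraries 9 were above every day library, and all but 1 of the day libraries, replicate 3 at 1:30, were below every night library. The log2 difference was -1.69 (SE 0.18, limma adjusted p = 7.57e-06), and within replicates 1, 2 and 3 it was -1.27, -2.34 and -1.57.

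The other called members work with or are HSP90. *Hsp90aa1*, its stress-inducible form, had medians of 59.4 TPM in the day and 136 TPM at night (log2 difference -1.20, SE 0.24, limma adjusted p = 0.0123). *Stip1*, which hands client proteins from HSP70 to HSP90, had 31.7 and 53.5 TPM (log2 difference -0.71, SE 0.14, limma adjusted p = 0.0123). *Fkbp4*, an immunophilin that works with HSP90 on steroid receptors, had 82.7 and 138 TPM (log2 difference -0.62, SE 0.11, limma adjusted p = 0.00481). All of them overlapped between day and night.

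*Hspa4l* at -1.0 (SE 0.25, limma adjusted p = 0.0502) and *Ahsa1* at -0.44 (SE 0.11, limma adjusted p = 0.0531) lay just outside the threshold. The constitutive *Hspa8* (log2 difference -0.18, SE 0.21) and the transcription factor gene *Hsf1* (-0.03, SE 0.10) were near 0. The forest plot of the list sets these values beside those of normoxia, where 11 members were higher at night and 0 in the day. Of all genes tested in normoxia, 2.6% were higher at night and 3.86% in the day.

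**Figure D2:**
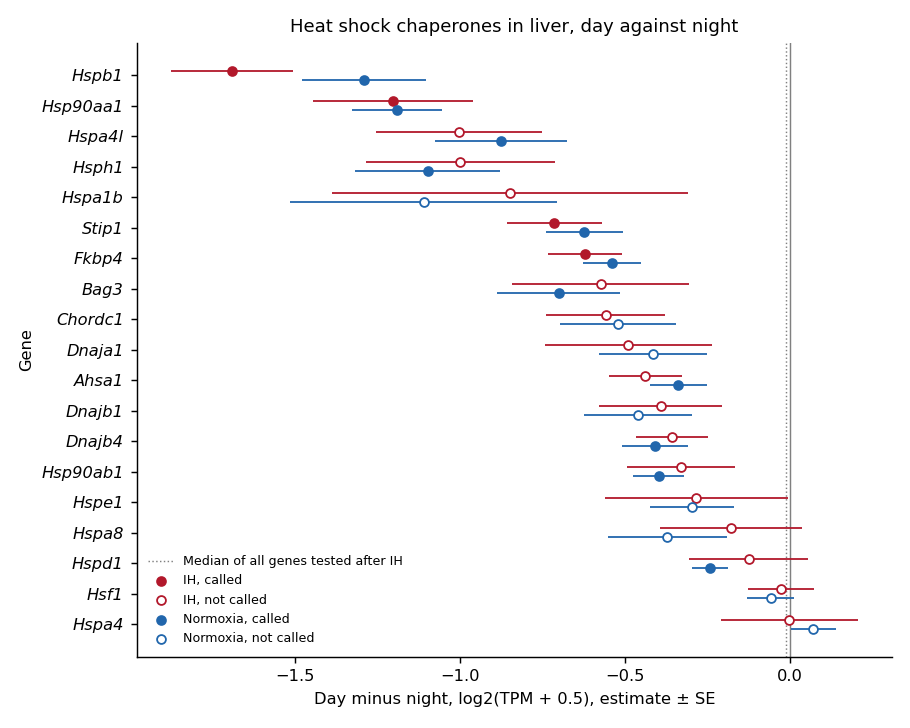
Difference between day and night, log2(TPM + 0.5), with its SE (horizontal axis) for the 19 heat shock chaperones tested (vertical axis), after IH in red and in normoxia in blue. Filled points were called, the dotted line is the median of all genes tested after IH (-0.01), and all 19 red points lie below 0.

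A heat shock element, written as GAA, TTC and GAA with 2 free bases between neighbours, was searched on both strands. It stood in 0.603% of promoters and in 4 of the 16 chaperones with an entry, *Hsph1*, *Chordc1*, *Hspd1* and *Hspe1*, none of which was called. *Hspd1* and *Hspe1* are neighbours that share a promoter region. In *Hsph1*, which encodes HSP110, it begins 36 bases after the start on the opposite strand (chr5:149636287-149636308, minus strand of the genome), and is shown in capitals as read along the gene.
Hsph1: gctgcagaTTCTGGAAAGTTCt
These letters were not found in the windows of *Hspb1*, *Stip1* and *Fkbp4*, and *Hsp90aa1* has no entry.

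Among glucocorticoid receptor targets, 11 of 15 listed genes were tested, 3 were higher at night, 0 were higher in the day and 8 were not called, beside 0.732% of all genes higher at night. The median log2 difference was -0.34. *Tsc22d3*, also known as GILZ, went from 17.8 to 70.2 TPM (median 31.8) in the day to 38.3 to 104 TPM (median 61.8) at night (log2 difference -1.15, SE 0.22, limma adjusted p = 0.00669). *Ddit4*, an inhibitor of mTORC1 signalling that is also a target of HIF, had medians of 4.07 and 12 TPM (log2 difference -1.23, SE 0.23, limma adjusted p = 0.00697). *Dusp1*, a phosphatase of MAP kinases, had medians of 12.1 and 20.9 TPM (log2 difference -0.81, SE 0.18, limma adjusted p = 0.03). Without replicate 1 or without replicate 2, 0 of these calls were left, and without replicate 3 there was 1. The signs stayed those of the fit that chose the genes. *Fkbp5*, the classical target of the receptor, was not called by this split (log2 difference -0.95, SE 0.39, limma adjusted p = 0.372) and passed the 24-hour fit with a peak at 14.5 h.

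Glucose and glycogen handling contributed 2 of 14 genes tested (18 listed), both higher at night (0.732% of all genes tested), with 12 not called and a median log2 difference of -0.12. *Ppp1r3b*, the subunit that brings protein phosphatase 1 to glycogen and so promotes its synthesis, was at 8.64 to 124 TPM (median 29.6) in the day and at 41.8 to 190 TPM (median 108) at night. Its log2 difference was -1.69 (SE 0.28, limma adjusted p = 0.0024). Replicate 3 was the highest at 7:30 and at each time point from then on, and at 10:30 it reached 124 TPM while the other mice were at 25.2 and 35.0 TPM. Day and night overlapped, with 4 night libraries above every day library and 8 day libraries below every night library. *Pfkfb1*, the liver enzyme that sets fructose 2,6-bisphosphate, had medians of 11.7 and 22.0 TPM (log2 difference -0.72, SE 0.14, limma adjusted p = 0.0116). Without replicate 1 or without replicate 3 the list kept 1 call, and without replicate 2 it had 0.

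In fatty acid synthesis 19 of 20 listed genes were tested and 18 of them were not called, where 0.985% of all genes tested were called. The list's median log2 difference was -0.25, with 16 of 19 estimates below 0, where 3827 of all 7107 genes were below 0. With the TPM as deposited 15 were below 0 and the median was -0.21. *Fasn*, the fatty acid synthase, had medians of 36.8 and 82.7 TPM and missed the threshold (log2 difference -1.03, SE 0.35, limma adjusted p = 0.194).

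In cholesterol synthesis and uptake, 1 of 25 genes tested was called higher at night (0.732% of all genes tested), *Insig1*, which retains the SREBP complex in the endoplasmic reticulum. It was at 68.2 to 156 TPM (median 119) in the day and at 139 to 267 TPM (median 190) at night, and 9 night libraries were above every day library (log2 difference -0.80, SE 0.17, limma adjusted p = 0.0152). The other 24 genes were not called. The estimates of 22 of the 25 were below 0, with a median of -0.23, where 3827 of all 7107 genes were below 0. With the TPM as deposited 19 were below 0 and the median was -0.18.

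Among amino acid and urea cycle enzymes 1 of 19 tested was called higher at night (0.732% of all genes tested), *Nags*, which makes the activator of the first urea cycle enzyme. Its medians were 39.3 TPM in the day and 53.1 TPM at night (log2 difference -0.35, SE 0.08, limma adjusted p = 0.0422), and it was lost in 29 of 43 alternatives.

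In 13 of the 20 pathway lists, 0 genes were called between day and night with limma, beside 0.985% of all genes tested. Of the 185 genes tested in them, 34 had an unadjusted p of at most 0.05, beside 680 of all 7107. The absence of calls therefore does not mean that these lists had no daily difference. Nor were all listed genes tested: it was 14 of 22 in the HIF list and 7 of 14 among cell cycle regulators. The lists were fatty acid oxidation and ketogenesis (21 genes tested, median log2 difference -0.03), bile acid synthesis and transport (16, -0.01), xenobiotic metabolism (19, -0.13), the cold-inducible RNA-binding proteins (2, 0.46), endoplasmic reticulum chaperones (20, -0.26), HIF subunits, PHDs and HIF targets (14, -0.12), NAD metabolism and sirtuins (13, -0.10), ribosome biogenesis (16, -0.02), acute-phase proteins (17, -0.000162), the growth hormone and IGF axis (12, 0.19), actin, tubulin and SRF targets (14, -0.14), cell cycle regulators (7, -0.03) and antioxidant and NRF2 targets (14, -0.04). The endoplasmic reticulum chaperones had 18 of 20 estimates below 0 without a call, beside 3827 of all 7107 genes below 0. The largest was *Creld2* at -0.70 (SE 0.37). *Cyp7a1*, the rate-limiting enzyme of bile acid synthesis, had medians of 12.5 TPM in the day and 30.6 TPM at night and missed the threshold (log2 difference -1.29, SE 0.37, limma adjusted p = 0.0923).

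A split of the cycle into day and night passes over genes that turn at its borders. A cosine and a sine term with a period of 24 hours were therefore fitted to the same 23 libraries, and 507 of 7107 genes (7.13%) were called with limma's F test. Of the 70 genes of the day and night comparison, 65 were among them, and 442 of the 507 (87.2%) were not called between day and night. The called day genes peaked between 4.68 and 8.40 h and the called night genes between 15.8 and 20.5 h. These ranges cover all 70 genes, also those that the 24-hour fit did not call. A split at these hours favours such peaks, so the ranges are a description. Of the 86 genes with a peak from 9 to 12 h and the 99 with a peak from 12 to 15 h, 0 were among the 70.

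**Figure D3:**
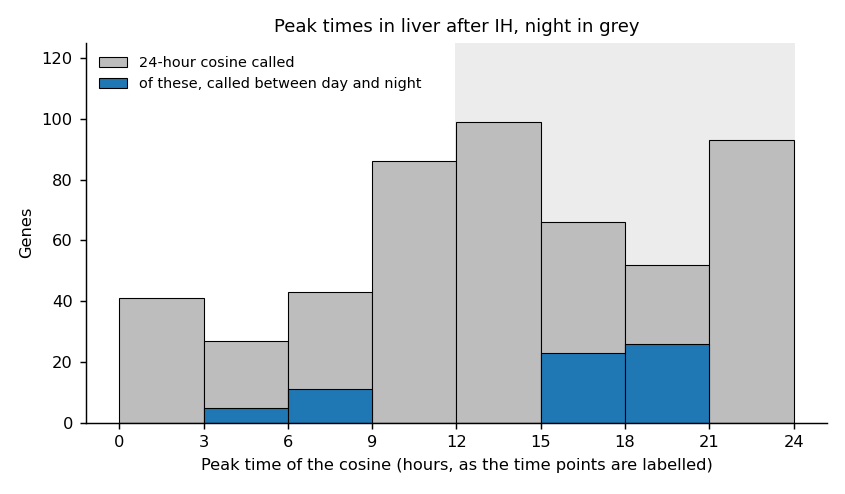
Number of genes (vertical axis) by the peak time of the fitted 24-hour cosine in bins of 3 hours (horizontal axis), for the 507 genes called in the 24-hour fit after IH and, in blue, for those also called between day and night. Peaks were most frequent from 12 to 15 h (99 genes) and from 21 to 24 h (93 genes), where no blue is seen.

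In the core clock list, 11 of 14 tested genes passed the 24-hour fit and 3 were called between day and night. *Dbp*, a PAR bZIP activator and direct CLOCK and BMAL1 target, had the widest swing of all, with a log2 amplitude of 3.06 (from the fitted mean to the peak) and a peak at 9.85 h. Its mean rose from 1.21 ± 0.470 TPM (SD, n = 3) at 1:30 to 115 ± 20 TPM at 7:30, and at 13:30 its 2 mice still had 22.4 and 42.2 TPM. Its day values therefore ran from 0.870 to 134 TPM, and the comparison of day and night gave 2.14 (SE 0.82, limma adjusted p = 0.306).

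*Arntl* was its opposite. It was at 8.86 ± 1.88 TPM (SD, n = 3) at 1:30, fell to 0.532 ± 0.200 TPM at 10:30 and stood at 10.7 ± 2.77 TPM at 22:30, with a peak at 22.1 h (amplitude 1.87, limma F test adjusted p = 7.36e-11). *Nr1d2*, the second REV-ERB gene, peaked at 9.88 h, later than *Nr1d1* with its peak at 7.08 h, and its difference of 1.09 (SE 0.40) was not called. *Ciart* peaked at 11.7 h (amplitude 1.99), *Tef* at 11.9 h (1.07) and *Bhlhe40*, another repressor at E-boxes, at 13.4 h (0.93). *Nfil3*, the repressor that opposes *Dbp* at D-boxes, peaked at 21.3 h (0.82) and *Clock* at 22.5 h (0.64). *Cry2*, *Rora* and *Hlf* did not pass the fit, with amplitudes of 0.23, 0.18 and 0.42.

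**Figure D4:**
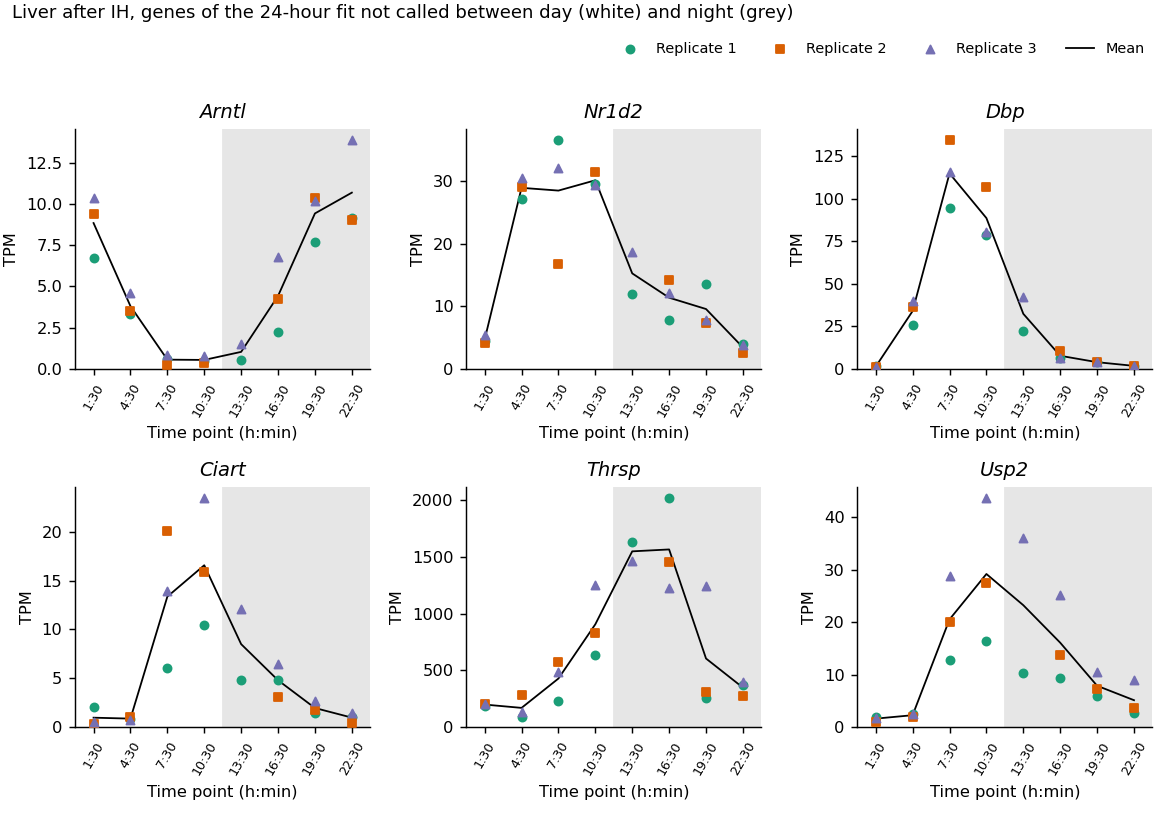
TPM (vertical axis, from 0) at the 8 time points (horizontal axis) of 6 genes that passed the 24-hour fit and were not called between day and night, in liver after IH, with night in grey. Each symbol is 1 mouse, and the line joins the means (2 mice at 13:30, otherwise 3). *Dbp* is highest at 7:30, *Ciart* and *Usp2* at 10:30 and *Thrsp* at 13:30 and 16:30, while *Arntl* is low from 7:30 to 13:30.

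Several metabolic genes that were not called between day and night had their turn near a border of the split. They are named by their amplitude, after their values were seen. *Thrsp*, a regulator of lipogenesis also called Spot 14, rose from 198 ± 14.4 TPM (SD, n = 3) at 1:30 to 1567 ± 408 TPM at 16:30 and peaked at 14.4 h (amplitude 1.71, limma F test adjusted p = 7.78e-06). *Lpin1*, a phosphatidate phosphatase, peaked at 12.4 h (1.61), *Usp2*, a deubiquitinase, at 12.8 h (1.86) and *Alas1*, the first enzyme of haem synthesis, at 12.3 h (1.17). *Herpud1*, of the degradation of proteins from the endoplasmic reticulum, peaked at 12.2 h (0.84) and *Nampt*, the rate-limiting enzyme of NAD salvage, at 13.7 h (0.94).

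At the other border, *Elovl3*, which elongates long fatty acids, had an amplitude of 2.10 with a peak at 24.0 h, and its medians in the day and at night were 150 and 156 TPM. *Insig2* peaked at 23.9 h (0.94), while *Insig1* peaked at 16.6 h (0.55), and *Hmgcs1*, at the head of cholesterol synthesis, at 0.0 h (0.93). *Tubb2a*, a beta tubulin, peaked at 22.1 h (1.60). *Hsd3b7*, an enzyme of bile acid synthesis, peaked at 2.78 h (0.65) while *Cyp7a1* peaked at 16.1 h (1.23), so members of 1 pathway list peaked on different sides of the cycle.

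The comparison with normoxia asks whether the daily difference itself was altered after IH. The interaction of phase with treatment, over 23 libraries after IH and 24 in normoxia that were scaled together, was called for 0 of 7107 genes (0%) with limma, with 31 genes at an unadjusted p of at most 0.05. Since each treatment was scaled by itself for its own difference, an interaction can depart slightly from the gap between the 2 differences. The cosine terms compared between the treatments gave 0 as well, with 63 at an unadjusted p of at most 0.05. Evenly spread p-values would put 355 of the 7107 genes there. Both sets of limma p-values thus ran high, so these tests called sparingly, and the reason was not tested. A p that misses the threshold does not show that the cycles were alike, and the intervals below show what remains possible.

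In normoxia 459 of the same genes (6.46%) were called between day and night, 274 (3.86%) higher in the day and 185 (2.6%) at night, and 1543 (21.7%) passed the 24-hour fit. All 70 genes called after IH had the same sign in normoxia, as did 76.4% of all genes tested. Of the 70, 52 were called in normoxia too, which is 74.3% of the genes called after IH and 11.3% of those called in normoxia. The median SE of the day and night difference over all genes was 0.145 after IH and 0.0953 in normoxia, and it holds the spread between mice, replicate numbers and the time points of a phase. In normoxia the kidney markers ranged from 1.08 to 124 TPM and the heart markers from 6.13 to 71.9 TPM. The kidney sums from 111 TPM up were those of replicate 3 at 7:30, 13:30, 16:30, 19:30 and 22:30. All other normoxia libraries were at 12.7 TPM at most, and those after IH were at 43.3 to 132 TPM. These transcripts thus went with phase in normoxia and with treatment in the interaction. The treatments also differed in liver and blood markers. Hepatocyte markers summed to between 57815 and 98997 TPM in normoxia. After IH they summed to 23998 to 44822 TPM in replicate 1, 35306 to 56259 in replicate 2 and 43770 to 71044 in replicate 3. Erythroid markers summed to between 1841 and 3949 TPM in normoxia and between 1260 and 11989 TPM after IH. The part of any of these transcripts in the calls was not tested.

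Among the clock genes, *Cry1* had a day and night difference of -1.55 (SE 0.22) after IH and -1.54 (SE 0.21) in normoxia, an interaction of -0.01 with an interval from -0.64 to 0.61. *Nr1d1* had 2.80 and 2.96, and its interaction of -0.13 had a wide interval, from -1.27 to 1.01.

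The differences between treatments that stood out among the 70 were not past the threshold. *Insig1* was at -0.80 (SE 0.17) after IH and at -0.32 (SE 0.13) in normoxia, with an interaction of -0.48 (95% interval -0.91 to -0.04, unadjusted p = 0.032, limma adjusted p = 1). *Urad*, a decarboxylase of uric acid breakdown, was the other gene of the 70 with an unadjusted p of at most 0.05, at -0.59 and -0.24 (unadjusted p = 0.0489 by limma). *Acnat2* had the largest interaction of the 70, -0.79 with an interval from -1.75 to 0.17, and *Hspb1* had -0.40 with an interval from -0.94 to 0.14. The difference was larger after IH than in normoxia for 54 of the 70, but those genes were selected for a large difference after IH.

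**Figure D5:**
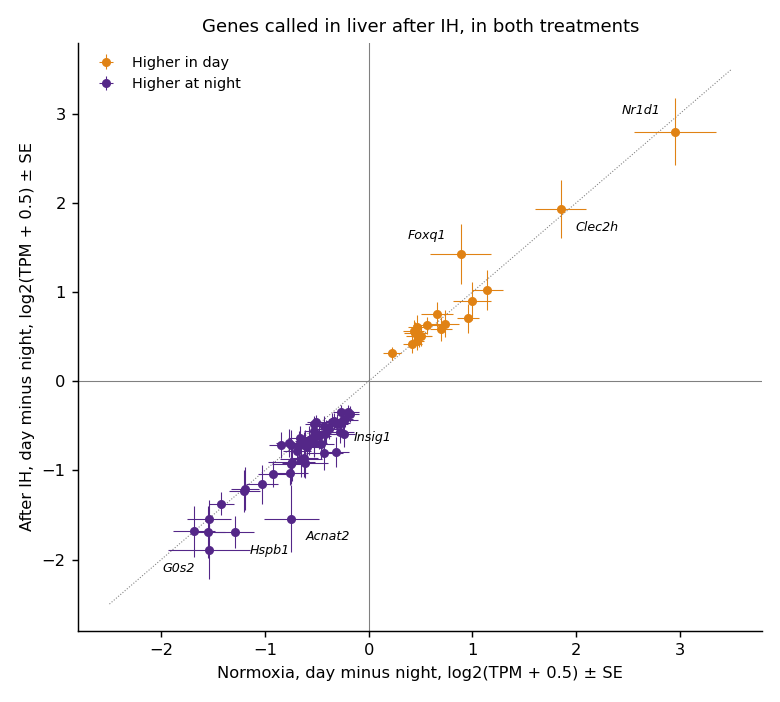
Difference between day and night, log2(TPM + 0.5) with SE, after IH (vertical axis) against normoxia (horizontal axis) for the 70 genes called after IH, orange where higher in the day and purple where higher at night. The dotted line marks equal differences, all points lie in the quadrants of equal sign, and *Acnat2* (interaction -0.79) lies farthest from the line.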

How the data were processed

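Male C57BL/6J mouse livers after IH or normoxia were sequenced by the authors at 8 time points with 3 mice each. The authors quantified reads with Kallisto against Ensembl release 102 mouse transcripts (mm10 per the labels) and deposited TPM per gene, so the read depth of each library is unknown from these values, no counting interval can be given, and no count model was used. Gene positions are from GENCODE mouse release 21 (GRCm38), and promoters are from RefSeq (GRCm38.p6).

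Genes had to average 5 TPM or more. Each library was divided by its median ratio to the geometric mean over libraries, and 0.5 TPM was added before the log2 transform, which understates fold changes of low genes. Linear models with phase, with a cosine and a sine of 24 hours, or with phase, treatment and their interaction were fitted with limma 3.58.1 (trended prior variance, R 4.3.3), 2-sided, with Benjamini-Hochberg adjustment over all 7107 genes. Values and figures were made with Python 3.11.15, pandas 2.3.3, scipy 1.17.1 and matplotlib 3.10.9. Scripts were tested on simulated data.

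Named are the 10 largest differences in each direction among called genes, without predicted genes and pseudogenes, and called members of 20 pathway lists, up to 4 per list. Some genes that the rule picks are not reported here. Other names were chosen after their values were seen. The members, gene lists and marker lists were chosen with earlier results of these data known. The alternatives were other pseudocounts, filters, scaling, fits per time point, a replicate block, and leaving out replicate numbers, time points and libraries. The 95% intervals were taken from the SE and the t distribution of the residual degrees of freedom.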

Additional observations from a re-analysis of the deposited data

Results flagged for a closer look

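The liver library labelled IH replicate 2 at 13:30, which was left out of the comparisons of the report, held heart transcripts. Its 10 heart markers summed to 8667 TPM, against 32.0 to 64.7 TPM in the 23 other liver libraries after IH and 6.13 to 71.9 TPM in normoxia. *Myh6*, the cardiac myosin heavy chain, was at 1507 TPM in it and *Alb* at 541 TPM. With this library added to the night, 27 genes were called between day and night, 8 higher in the day and 19 at night.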

How the results depend on the processing

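Between day and night 70 genes were called. The number was 24 with the TPM as deposited, 127 when the means of the time points were fitted, 27 with all 24 libraries, 187 without the time point 1:30, 19 without 4:30, 18 without 7:30 and 17 without 16:30. Leaving out a replicate number or a library gave from 5 to 103 genes (5 without replicate 2). Pseudocounts of 0.1 and 1 gave 70 and 71, a minimum of 1 TPM gave 105 of 11237 genes and no filter gave 55 of 29849. The 24-hour fit called 507 genes, 332 with the TPM as deposited, and from 177 to 413 without a replicate number. Day and night in normoxia gave 459 genes and from 84 to 340 without a replicate number. The interaction with treatment stayed at 0 calls under each alternative run. Of the 27 genes that the naming rule picked, 3 were called under all 43 alternatives, *Nr1d1* and *Hspb1* among them, and 13 with the TPM as deposited. None reversed, but they were picked for their difference in these same libraries. The cause of these shifts was not tested.

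The replicate numbers come from the labels, which do not say what mice of 1 number share. Deviations of libraries from their time point means were correlated between pairs of libraries. For the same number, the correlations ran from -0.486 to 0.837 (number 1), from -0.507 to 0.448 (number 2) and from 0.475 to 0.898 (number 3). Pairs of different numbers ran from -0.906 to 0.858, with a median of -0.285. The deviations at a time point add up to 0, so part of this contrast is arithmetic. Over 0.1 were 25 of 28, 15 of 21 and 28 of 28 pairs of numbers 1, 2 and 3, and 38 of 154 pairs of different numbers. This is a hint from the data that libraries of 1 number deviate together, most of all number 3, but not every pair did, and the numbers were not taken to pair the mice. With a replicate block, 196 genes were called between day and night (62 and 134), 1240 in the 24-hour fit and 922 between day and night in normoxia, and 7 heat shock chaperones were called after IH. Chosen after seeing the data, the block with time point means gave 383 genes, the fit within replicate number 1, 2 or 3 gave 0 each (222, 489 and 645 at an unadjusted p of at most 0.05 with limma), and 87 were called without the 2 libraries that detected most genes. TPM carries no read depth, and 11 against 12 mice limit the size of difference that can be called.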
